A study of Mus musculus with 99 samples.

Results

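T-box factors are transcription factors that share a DNA-binding domain, the T-box, and that pattern the heart, limbs, somites and pharyngeal arches of the embryo. In embryonic stem cells (ESCs), most developmental regulators of this kind are kept silent by the Polycomb repressive complexes. PRC1 carries the ubiquitin ligase RING1B, which places a single ubiquitin on histone H2A (H2AK119ub1), and PRC2 trimethylates histone H3 (H3K27me3). The 9 genes described here, out of 55341 gene names in the count table, were Tbx1, Tbx2, Tbx3, Tbx4, Tbx5, Tbx6, Tbx15, Tbx18 and Tbx20. They were chosen by name, with their RNA read counts in all 16 RNA-seq libraries and every ChIP-seq peak that overlapped the gene or the 2.5 kb to either side of it.

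The parental line was a mouse ESC line that lacks RING1A, carries floxed RING1B alleles and expresses a Cre recombinase that 4-hydroxytamoxifen (OHT) activates from the ROSA26 locus. From it came cells that also express a tagged RING1B from a CAG-driven transgene, either wild type (RING1B WT) or with the I53S mutation that removes the ligase activity (RING1B I53S). Loss of RING1A and the floxed alleles were therefore shared by all 3 lines, vehicle groups included, and each engineered line was a clone. A separate line carried floxed Eed, a core subunit of PRC2, with the same inducible Cre. The paper lists more than 1 clone of it, and the library titles do not say which clone gave each library. Vehicle (ethanol) groups are called -OHT, and treated groups received 0.5 µM OHT for 72 h, with 48 h added for some MTF2 and JARID2 libraries. RNA-seq had 2 libraries in each of the 8 groups. ChIP-seq gave 70 peak lists for 12 antibodies, nearly all with 1 library per condition, and parental, RING1B WT and RING1B I53S clones without MTF2, a PRC2 subunit, were profiled for H3K27me3 and SUZ12. Nothing in the labels said that replicates came from separate cultures, so p-values measure the spread between these libraries, which may be technical.

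Totals ranged from 8140106 to 12743460 reads in the 12 libraries of the RING1B lines and from 6957248 to 9443814 in the 4 Eed libraries. Rnf2, the gene for RING1B, was at 228 ± 41.6 CPM (SD, n = 2; reads scaled to the library size after TMM normalisation) in parental cells -OHT and at 155 ± 16.1 CPM in +OHT. In the lines with a transgene, the count over the whole gene does not separate floxed from transgenic transcripts. Parental cells carry no transgene, and the source of their Rnf2 reads after OHT was not tested. Ring1, the gene for RING1A, was at 1.03 to 4.02 CPM in the 12 libraries, and Mtf2 changed by −0.49 ± 0.17 on the log2 scale in parental cells with OHT. Eed was at 214 ± 58.3 CPM in Eed fl/fl cells -OHT and at 55.4 ± 16.5 CPM in +OHT. The pluripotency list, which checks the ESC label, had all 10 of its genes detected in every group, and its summed level was 3931 to 4515 CPM in parental cells -OHT.

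The starts of the T-box genes differ in base composition, which is shown here because Polycomb complexes are known to collect at CpG-rich promoters. RefSeq promoter windows (build GRCm38.p6) were at hand for 5 of the 9 genes, namely Tbx1, Tbx4, Tbx6, Tbx18 and Tbx20. The 250 bases upstream of the start are printed 5′ to 3′ on the gene's strand, with each CG dinucleotide in capitals. They are those of Tbx20 (chr9:24774304-24774553, minus strand) and Tbx18 (chr9:87731261-87731510, minus strand), where the RING1B peak of parental cells -OHT covered the window. Tbx4 (chr11:85896515-85896764, plus strand) is shown at an internal start outside its RING1B peaks, and Tbx6 (chr7:126781233-126781482, plus strand) had no RING1B peak.
Tbx20: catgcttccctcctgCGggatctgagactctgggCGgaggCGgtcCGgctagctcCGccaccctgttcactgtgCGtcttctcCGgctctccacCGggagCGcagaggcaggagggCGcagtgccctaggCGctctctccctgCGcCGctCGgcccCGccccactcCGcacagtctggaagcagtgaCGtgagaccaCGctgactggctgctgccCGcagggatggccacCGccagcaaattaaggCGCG
Tbx18: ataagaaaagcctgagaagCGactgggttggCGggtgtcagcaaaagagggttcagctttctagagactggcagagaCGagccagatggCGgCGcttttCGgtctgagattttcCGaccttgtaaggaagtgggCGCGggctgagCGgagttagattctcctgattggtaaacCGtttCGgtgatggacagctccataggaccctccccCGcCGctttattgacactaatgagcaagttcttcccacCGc
Tbx4: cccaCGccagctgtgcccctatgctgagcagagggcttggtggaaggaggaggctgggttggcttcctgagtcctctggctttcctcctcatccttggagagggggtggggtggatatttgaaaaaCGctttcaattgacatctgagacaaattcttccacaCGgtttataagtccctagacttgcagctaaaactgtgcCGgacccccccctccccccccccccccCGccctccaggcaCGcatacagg
Tbx6: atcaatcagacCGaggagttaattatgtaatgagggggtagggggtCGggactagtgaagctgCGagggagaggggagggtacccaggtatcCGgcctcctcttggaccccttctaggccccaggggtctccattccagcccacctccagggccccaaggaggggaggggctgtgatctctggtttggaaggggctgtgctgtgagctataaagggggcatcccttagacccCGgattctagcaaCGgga

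Over the full windows of 300 bases, which run 50 bases past the start, the Tbx20 window held 26 CG dinucleotides and the Tbx18 window 15. The Tbx4 window held 8 and the Tbx6 window 7, and the median over all 32851 windows was 7. The Tbx1 gene had a pair of windows with 26 and 16. Fewer CG dinucleotides than in Tbx20 were found in 83.1% of all windows, and fewer than in Tbx6 in 47.9%. The Tbx4 window lies at the start that RefSeq lists, inside the gene, since the GENCODE gene begins further upstream, and a RING1B peak covered that upstream start. The motif AGGTGTGA, the half-site that T-box factors are known to bind, was searched on both strands. It was in 0 of the 6 member windows and in 1.28% of all windows, which says only that these letters are not in these windows.

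RING1B and its mark were found at every T-box gene here but Tbx6. In parental cells -OHT, 8 of the 9 genes held a RING1B peak, and in the same library 10.4% of all annotated genes did. The same 8 genes held a peak of H2AK119ub1 (14.5% of annotated genes), of PCGF2 (10.3%) and CBX7 (10.4%), which belong to canonical PRC1, and of SUZ12 (17.1%), the core PRC2 subunit. H3K27me3 was found at 7 of the 9, the exceptions being Tbx3 and Tbx6, and 17.8% of annotated genes held it. PCGF6, of a variant PRC1, was found at 7 genes (16.1% of annotated genes), and RYBP, another variant PRC1 subunit, at 5 (6.72%). No test was made on peaks, since a condition has 1 library. A longer gene offers more bases for a peak to overlap, and the spans here ran from 4078 bp for Tbx6 to 113879 bp for Tbx15.

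The reach of the peaks differed widely among the members. Tbx2, a repressor of the atrioventricular canal, lies at chr11:85832551-85841948 (GRCm38, the mm10 build of the files), and a RING1B peak covered 100% of the gene with its 2.5 kb flanks. Its score, the −log10 p the peak caller gave, was 268, above or equal to those of 99.2% of genes with a RING1B peak in that library. Tbx1, a regulator of the pharyngeal arches at chr16:18580979-18590671 on the minus strand, had 77.1% of its extended span under RING1B peaks, with a score of 247. Both were Polycomb domains that took in the whole gene.

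At Tbx4, the hindlimb factor at chr11:85886422-85916097, 9.48 kb lay under RING1B peaks, whereas H2AK119ub1 covered 26.6 kb and H3K27me3 31.5 kb. The marks thus reached over most of the gene body while RING1B itself sat in its upstream part. Tbx5, the forelimb and heart factor at chr5:119832668-119885219, held 5 short RING1B peaks that summed to 6.30 kb, the highest with a score of 31.2. H3K27me3 covered 17.6 kb of it.

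Tbx18, an epicardial and sinus node factor at chr9:87702800-87731260 on the minus strand, held a RING1B peak of 2.41 kb at its start with a score of 184. Tbx20, which is needed for heart chamber growth and lies at chr9:24718138-24774303 on the minus strand, held RING1B peaks of 4.67 kb in sum at its start with a top score of 105. Tbx15, a skeletal and skin patterning factor at chr3:99240381-99354259, held 4 RING1B peaks of 6.48 kb in sum, all in its first part, and the highest score was 77.1. RING1B peaks at these 3 genes covered 5.45% to 7.63% of the extended span, since the genes are long.

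Tbx3, a repressor known in ESCs for its part in the naive state, stood apart. It lies at chr5:119670669-119684724, and its RING1B peak had a score of 13.3, close to the lowest score in any list, 10. Only 13.1% of genes with a RING1B peak scored as low or lower. Tbx3 held a peak in 23 of the 70 ChIP lists and none of H3K27me3, PCGF6, RYBP or AEBP2. The 70 lists include treated and MTF2 KO cells. In the 16 vehicle lists outside the MTF2 KO clones, Tbx3 held a peak in 12. Tbx6, the presomitic mesoderm factor at chr7:126781483-126785560, held no peak in any of the 70 lists. Tbx2 by contrast held a peak in 64 lists, Tbx4 in 59, Tbx1 in 58, Tbx18 in 57, Tbx20 in 48, Tbx15 in 47 and Tbx5 in 43. The 4 lists called on input chromatin held none at the 9 genes.

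**Figure D1:**
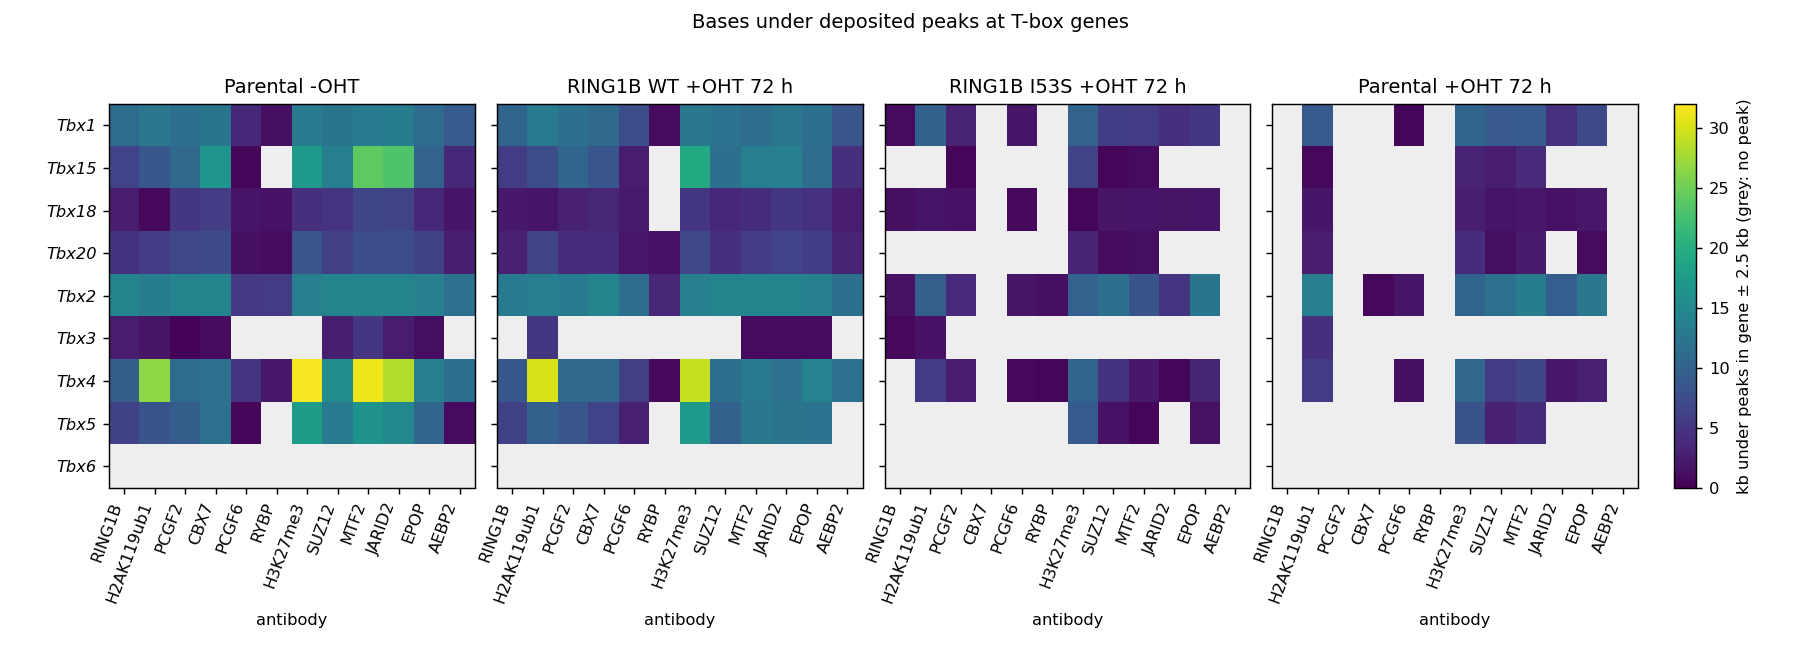
Kilobases under deposited peaks within each T-box gene and 2.5 kb to either side (rows) for 12 antibodies (columns) in 4 conditions, 1 library per cell of the grid (replicate 1 where there are 2 libraries); grey means no peak. Tbx6 is grey throughout, and the 31.5 kb of H3K27me3 at Tbx4 in parental cells -OHT stands out.

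After OHT, the number of T-box genes with a RING1B peak differed between the lines. In parental cells +OHT, 0 of the 9 genes held a RING1B peak, against 1.14% of annotated genes. With RING1B WT, 7 of the 9 held a peak (8.03% of annotated genes), with Tbx3 and Tbx6 the exceptions. With RING1B I53S, 4 of the 9 did (Tbx1, Tbx2, Tbx3 and Tbx18; 2.13% of annotated genes). These 4 peaks were short, 0.671 to 1.39 kb, with scores from 10.1 to 13.98, and the one at Tbx3 lay inside the gene, away from the upstream peak of parental cells -OHT. At Tbx2 the covered length was 14.4 kb in parental cells -OHT, 13.2 kb with RING1B WT and 1.39 kb with RING1B I53S. The lists held 5073 RING1B peaks in parental cells -OHT, 3941 with RING1B WT, 1287 with RING1B I53S and 690 in parental cells +OHT, and scores rise with depth, so levels were not compared between libraries. None of the 4 genes kept a RING1B peak with RING1B I53S when a score of at least 20 was asked for.

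The number of T-box genes with a peak of a canonical or variant PRC1 subunit also differed between the lines. CBX7 was found at 7 T-box genes with RING1B WT (5.48% of annotated genes). It was found at 0 with RING1B I53S (0.0866% of annotated genes) and at 1, Tbx2, in parental cells +OHT (0.155%). PCGF2 was found at 7 genes with RING1B WT (7.63%), at 5 with RING1B I53S (1.46%) and at 0 in parental cells +OHT (0.254%). PCGF6 was found at 7 genes with RING1B WT (15.1%), at 4 with RING1B I53S (5.79%) and at 3 in parental cells +OHT (10.9%). Tbx1, Tbx2 and Tbx4 held PCGF6 in all 4 conditions. RYBP was found at 4 genes with RING1B WT (2.75%), at 2 with RING1B I53S (1.84%) and at 0 in parental cells +OHT (0.142%).

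H2AK119ub1 peaks did not vanish from the lists after OHT. They were at 8 T-box genes with RING1B WT (17.4% of annotated genes), at 5 with RING1B I53S (6.61%) and at 7 in parental cells +OHT (11.6%). At Tbx5 they were listed in parental cells -OHT (8.32 kb) and with RING1B WT (9.82 kb) but neither with RING1B I53S nor in parental cells +OHT. At Tbx4 the covered length was 26.6 kb in parental cells -OHT and 30.1 kb with RING1B WT, against 5.61 kb with RING1B I53S and 5.64 kb in parental cells +OHT. Tbx2 went from 13.5 kb to 13.7 kb in parental cells, but these lengths are cut at the edges of the extended gene. Uncut, its peaks were 7415 and 10658 bp long -OHT and 4124 and 11835 bp long +OHT. The lists carry no spike-in or depth scaling, and a peak in a list does not give the level of the mark. With spike-in scaling, the paper reported a complete loss of H2AK119ub1 at PRC1 targets with RING1B I53S. Its western blots showed a global loss in RING1B I53S and parental cells +OHT.

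At Tbx18 the H2AK119ub1 peaks lay in different places. Their scores, which rise with depth, are not compared between libraries. In parental cells -OHT a peak of 659 bp with a score of 11.95 lay upstream of the start. In parental cells +OHT a peak of 1986 bp with a score of 44.3 lay at the start, inside the gene, and with RING1B I53S one of 1861 bp with a score of 45.5 lay there. The RING1B peak of 1339 bp that RING1B I53S cells held at Tbx18 fell in the same stretch. That place was not particular to RING1B I53S. The RING1B peaks of parental cells -OHT (2414 bp) and of RING1B WT (2214 bp) covered it as well. With RING1B WT the H2AK119ub1 peaks had scores of 11.4 and 12.03 and lay on either side of the start.

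PRC2 and its mark were still listed at 7 T-box genes, all but Tbx3 and Tbx6, after OHT in the 3 lines, and their reach was shorter in parental and RING1B I53S cells than in parental cells -OHT at each of the 7. SUZ12 was found at 7 genes with RING1B WT (14% of annotated genes), at 7 with RING1B I53S (7.52%) and at 7 in parental cells +OHT (12.1%). H3K27me3 was found at 7 of the 9 in each of these (17.9%, 14.4% and 14.5%). At Tbx15 the H3K27me3 peaks summed to 17.1 kb in parental cells -OHT and 19.5 kb with RING1B WT. They summed to 6.61 kb with RING1B I53S and 3.16 kb in parental cells +OHT. At Tbx20 SUZ12 peaks summed to 6.10 kb in parental cells -OHT and 4.49 kb with RING1B WT, and to 0.984 kb with RING1B I53S and 1.15 kb in parental cells +OHT. By share of the extended span, Tbx2 and Tbx1 kept the most H3K27me3. It covered 71.5% and 70.3% of them in parental cells +OHT and 70.3% and 69.5% with RING1B I53S.

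**Figure D2:**
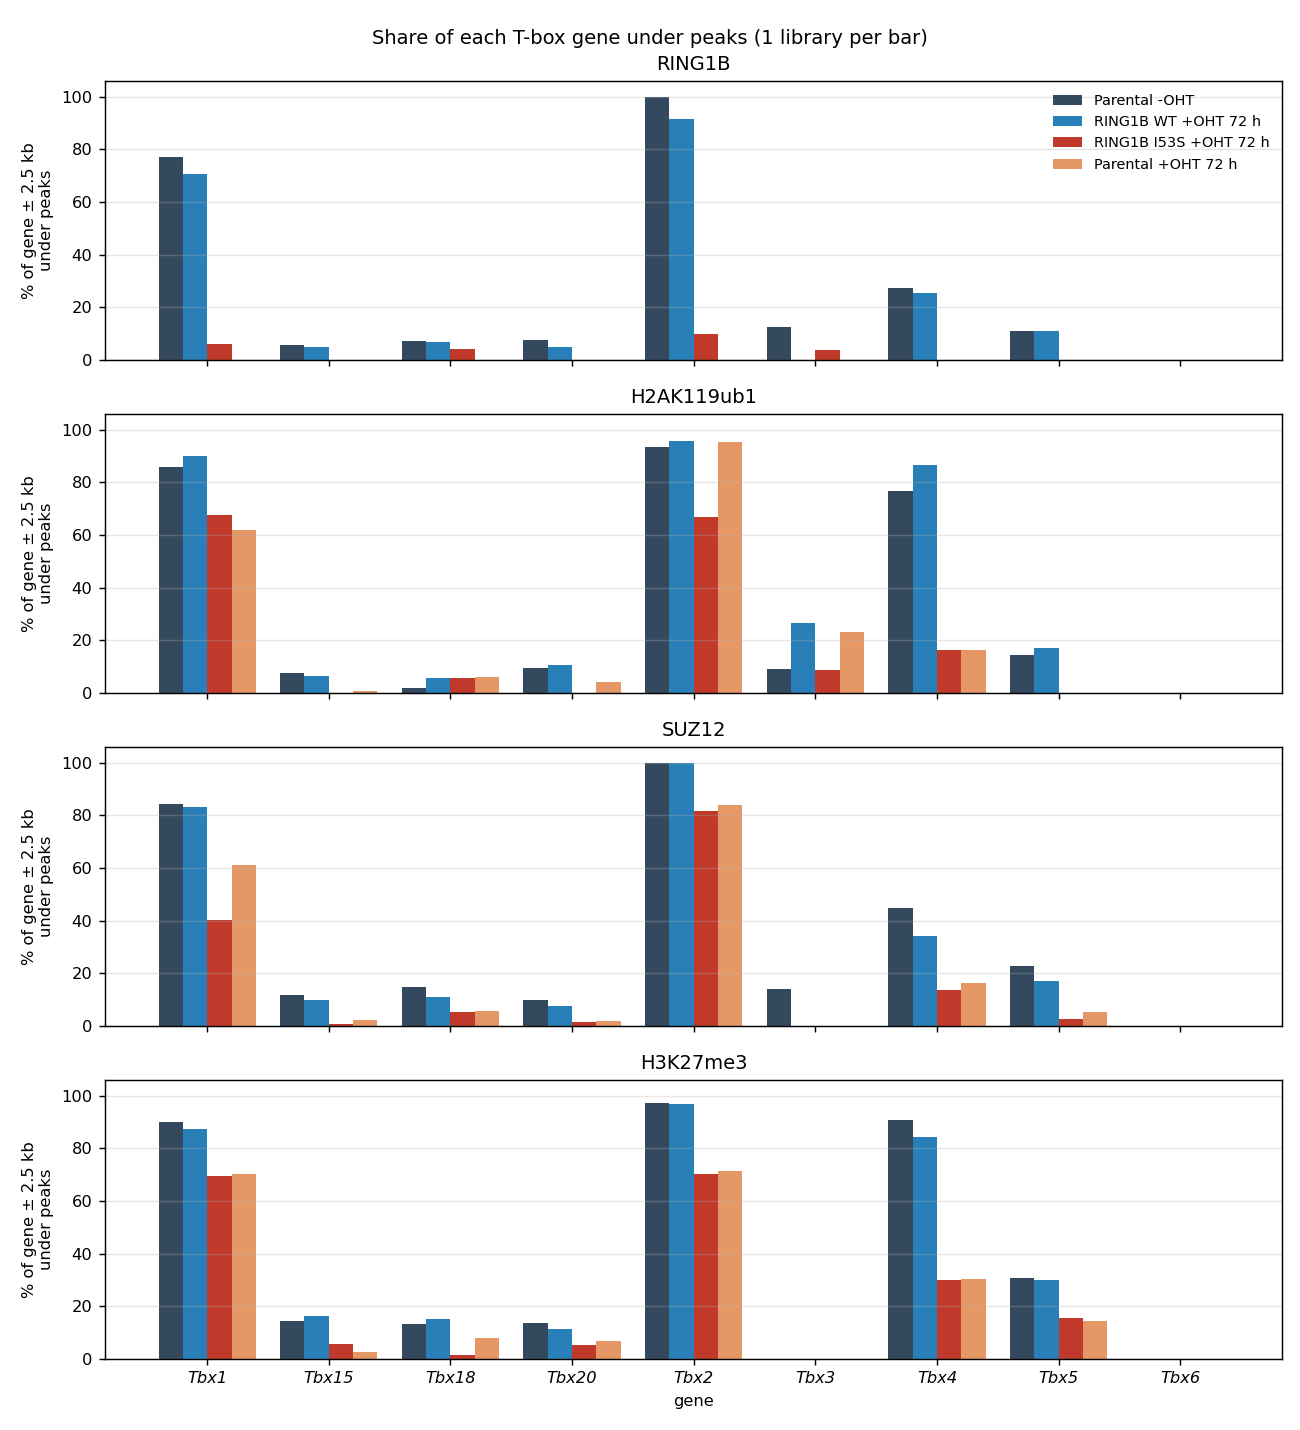
Percent of each T-box gene, taken with 2.5 kb to either side, under peaks of RING1B, H2AK119ub1, SUZ12 and H3K27me3 (panels, 0 to 100%), with 1 bar per library in 4 conditions. The RING1B bars of parental cells -OHT and RING1B WT reach 100% and 91.4% at Tbx2, and that of RING1B I53S 9.62%.

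PRC2 subunits of the variant complexes differed from each other at these genes. MTF2, of PRC2.1, was found at 7 genes in parental cells at 72 h of OHT (14.7% of annotated genes). It was at the same 7 in both RING1B I53S libraries at 72 h (6.67% and 14.7%), which held 3091 and 7546 peaks. In parental cells -OHT, MTF2 was at 8 genes (31%). Both RING1B WT libraries at 72 h also had it at 8 (16.4% and 15%). JARID2, of PRC2.2, was at 8 genes in parental cells -OHT (19.9%), at 7 at 48 h of OHT (6.34%) and at 4 at 72 h (3.02%). With RING1B I53S, JARID2 was at 8 genes -OHT (12%), at 5 at 48 h (2.37%) and at 4 and 3 in the pair of libraries at 72 h (2.39% and 0.945%). Tbx3, Tbx5 and Tbx20 had no JARID2 peak at 48 h with RING1B I53S, and Tbx1, Tbx2 and Tbx4 were the genes that held one in every JARID2 list. With RING1B WT, the pair of JARID2 libraries at 72 h gave 8 and 7 genes (11.1% and 11%). EPOP, of PRC2.1, was at 8 genes in parental cells -OHT (14.3%) and with RING1B WT (14.3%) and at 5 in each of the other groups (6.57% with RING1B I53S and 6.02% in parental cells +OHT). AEBP2, of PRC2.2, was at 7 in parental cells -OHT (2.61%), at 6 with RING1B WT (2.82%) and at 0 in both others, whose lists held 50 and 14 peaks over the whole genome.

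Without MTF2, H3K27me3 was still found at 7 T-box genes in parental cells -OHT (7.77% of annotated genes). With OHT it was at 6 with RING1B WT (4.52%), at 2 with RING1B I53S (Tbx2 and Tbx18; 2.41%) and at 1 in parental cells (Tbx2; 0.534%). SUZ12 in the MTF2 KO clones was at 7 in parental cells -OHT (6.78%) and at 7 with RING1B WT (7.61%). It was at 1 with RING1B I53S (Tbx2; 1.26%) and at 3 in parental cells +OHT (Tbx2, Tbx4 and Tbx18; 3.03%). H3K27me3 covered 28.7 kb at Tbx4 in the parental MTF2 KO clone -OHT and was not listed there +OHT. Peak counts over the genome moved the same way, from 7852 to 332 in that clone.

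Of the 9 genes, only Tbx3 was expressed at a high level in these ESCs. Per kilobase of exon (RPKM), Tbx3 was at 51.2 ± 9.19 (SD, n = 2) in parental cells -OHT. Next came Tbx20 at 0.293 ± 0.0942 RPKM, then Tbx6 at 0.159 ± 0.0308 and Tbx5 at 0.158 ± 0.00127 RPKM, a pair that did not differ beyond their spread. Below them were Tbx15 at 0.0547 ± 0.0159, Tbx4 at 0.0541 ± 0.0251, Tbx18 at 0.0262 ± 0.0371 and Tbx2 at 0.0225 ± 0.0318 RPKM, whose spreads overlap, and Tbx1 had no read. Tbx3 exceeded 95.1% of the 28053 genes with a read in that group, and Tbx20 exceeded 35.5%. In parental cells +OHT the order was Tbx3 at 28.7 ± 0.0768 RPKM, Tbx4 at 2.62 ± 0.664 and Tbx20 at 2.43 ± 0.393, a pair within their spread. Tbx15 was then at 1.70 ± 0.202, Tbx5 at 0.985 ± 0.390, Tbx18 at 0.877 ± 0.0135, Tbx6 at 0.642 ± 0.238, Tbx2 at 0.392 ± 0.0544 and Tbx1 at 0.180 ± 0.0198 RPKM.

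**Figure D3:**
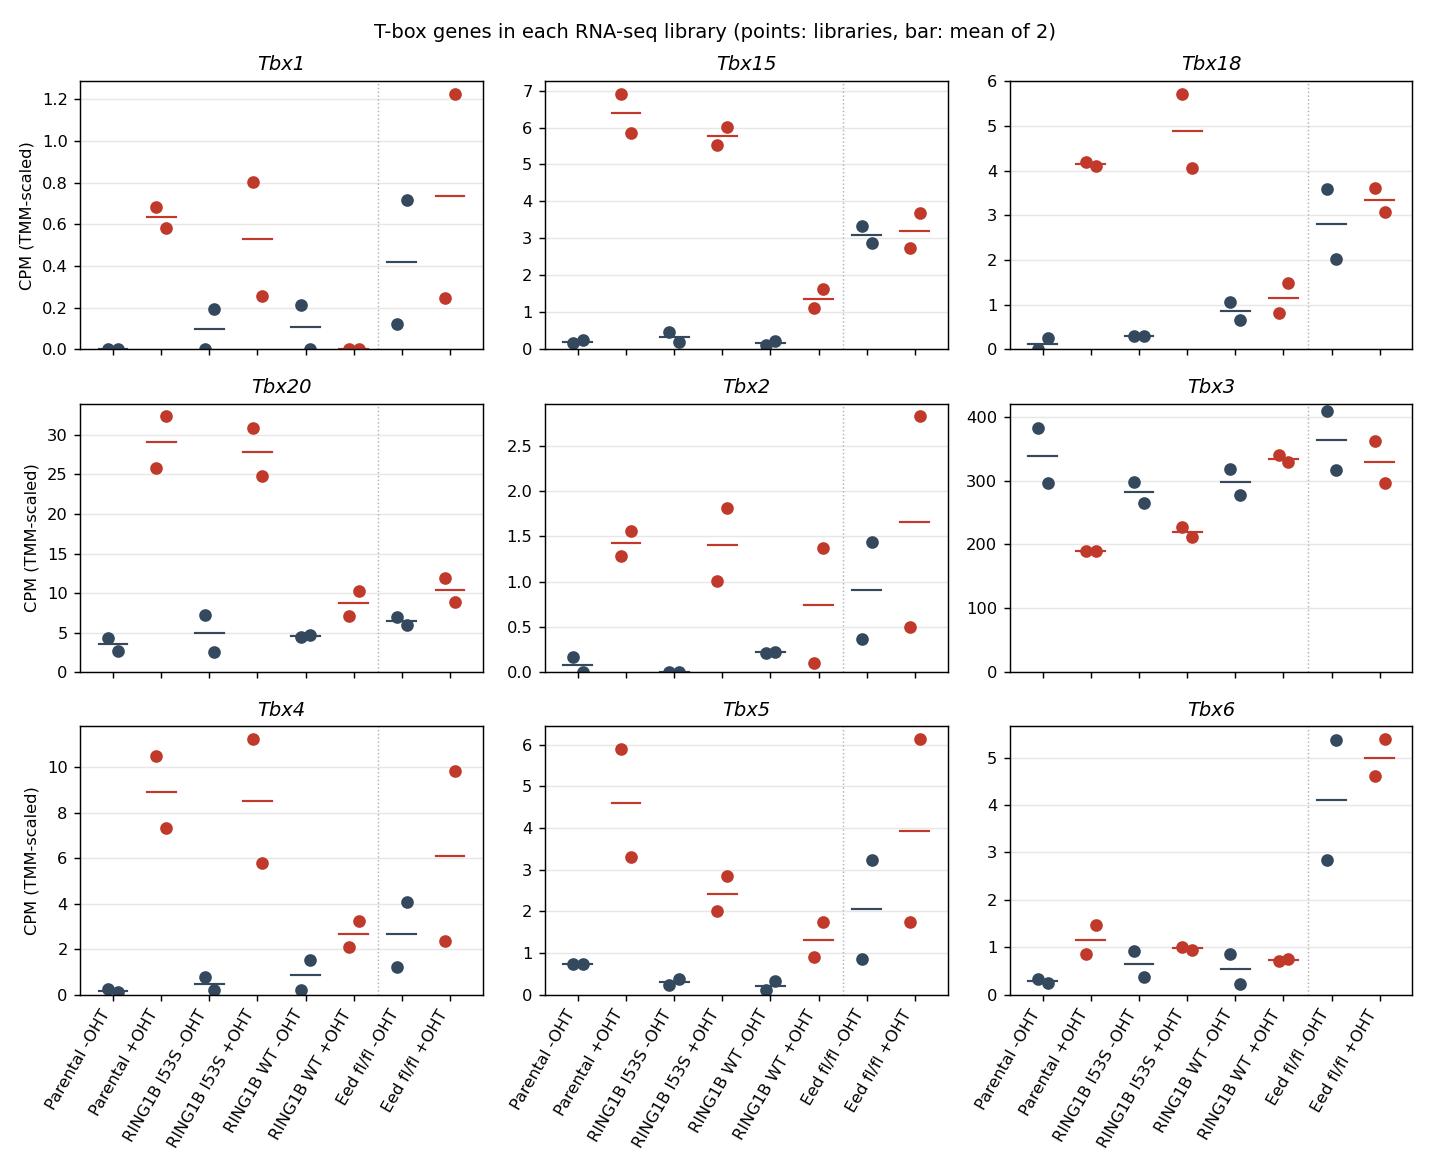
CPM of the 9 T-box genes in each of the 16 RNA-seq libraries (points), with the mean of the 2 libraries of a group as a bar and a linear axis from 0 in each panel; red is +OHT and dark grey -OHT, and the dotted line sets off the Eed fl/fl line. Tbx20 sits at 2.72 and 4.32 CPM in parental cells -OHT and at 25.8 and 32.5 CPM in +OHT.

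After OHT, 6 of the 9 T-box genes rose in parental cells. A gene was called when the Benjamini-Hochberg adjusted p of edgeR's quasi-likelihood test was below 0.05 and the log2 fold change at least 1.5 in size. By this rule Tbx2, Tbx4, Tbx5, Tbx15, Tbx18 and Tbx20 rose, where 15.1% of the 18154 genes tested rose. No T-box gene was called lower (1.83% of genes were). Of the 9 genes, 8 passed the filter on low counts and Tbx1 did not. Several passed through their +OHT libraries alone, so the count among those that passed is a description. The median log2 fold change of the 8 was 3.37, and over all genes tested it was 0.03. In bulk RNA, more cells expressing a gene and more RNA per cell cannot be told apart.

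In the Tbx1 branch of the family, Tbx20 was the most abundant. It was at 4.32 and 2.72 CPM in parental cells -OHT and at 25.8 and 32.5 CPM in +OHT. The groups do not overlap, and the log2 fold change was 3.01 ± 0.37 (SE; edgeR adjusted p = 5.1e-06). Tbx15 was at 0.163 and 0.247 CPM -OHT, which is 2 reads in each library, and at 6.92 and 5.85 CPM +OHT. The log2 fold change of Tbx15 was 4.93 ± 0.60 (adjusted p = 4.71e-06). Tbx18 had 0 and 2 reads -OHT and 49 and 42 +OHT, without overlap, and its log2 fold change was 5.20 ± 0.79 (adjusted p = 4.88e-05). Such a fold rests on very few reads in the vehicle libraries. The ratio of scaled counts for Tbx18 was 42.2, with an exact 95% counting interval from 11.3 to 354, which covers counting error only. Tbx1 had no read in either vehicle library and 8 and 6 reads in +OHT. Set against a floor of 3 reads over the vehicle group, it was at least 4.33-fold higher, and it was not tested.

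In the Tbx2 branch, Tbx4 had 3 and 1 reads in parental cells -OHT and 123 and 75 in +OHT. Its log2 fold change of 5.43 ± 0.74 (edgeR adjusted p = 1.65e-05) was the largest among the members in this comparison. Its neighbour Tbx2 had 2 and 0 reads -OHT and 15 and 16 +OHT, with a ratio of 14.4 and a 95% counting interval from 3.66 to 124. The edgeR adjusted p for Tbx2 was 0.0144, and its call rests on single libraries. Leaving out replicate 2 of the vehicle group gave 0.113, and leaving out replicate 2 of the treated group gave 0.0703. Tbx5 was at 0.733 and 0.742 CPM -OHT and at 5.89 and 3.31 CPM +OHT. The log2 fold change of Tbx5 was 2.63 ± 0.58 (adjusted p = 0.00157). Tbx5 had 9 and 6 vehicle reads, more than Tbx2 and Tbx4 on the same count scale.

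Tbx3 went the other way. It was at 382 and 296 CPM in parental cells -OHT and at 190 and 190 CPM in +OHT, without overlap. The log2 fold change was −0.84 ± 0.17 (edgeR adjusted p = 0.000945), which passes the p threshold but not the fold threshold, so it was not called. Tbx3os1, whose exons overlap those of Tbx3 by 115 bp on the other strand, had 13 to 27 reads in these 4 libraries. The counting did not use strand, and Tbx3 had 1953 to 4689 reads in the same libraries. Tbx6 was at 0.326 and 0.247 CPM -OHT and at 0.854 and 1.46 CPM +OHT. Its log2 fold change was 1.93 ± 0.82 with an adjusted p of 0.0735, so it was not called. D030062O11Rik, which overlaps Tbx18 by 970 bp, had 0 to 2 reads in any of the 12 libraries.

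RING1B I53S cells gave the same 6 calls. Tbx2, Tbx4, Tbx5, Tbx15, Tbx18 and Tbx20 rose with OHT, where 12.8% of genes did. The median log2 fold change of the 8 members tested was 3.47 (3.22 with Tbx2 at its bound), and over all genes it was 0.01. Tbx20 was at 7.18 and 2.59 CPM -OHT and at 30.9 and 24.8 CPM +OHT. The log2 fold change of Tbx20 was 2.48 ± 0.36 (edgeR adjusted p = 4.05e-05). Tbx4 had 10 and 2 reads -OHT and 112 and 67 +OHT. The log2 fold change of Tbx4 was 4.04 ± 0.63. Tbx15 had 6 and 2 reads -OHT and 55 and 70 +OHT (4.04 ± 0.54). Tbx18 had 4 and 3 reads against 57 and 47 (3.97 ± 0.64), and Tbx5 had 3 and 4 against 20 and 33 (2.96 ± 0.66). In none of these did the groups overlap. Tbx2 had 0 reads in both vehicle libraries and 10 and 21 in +OHT, which is at least 11.2-fold higher against a floor of 3 reads over the vehicle group. Tbx1 had 0 and 2 reads -OHT and 8 and 3 +OHT, a ratio of 5.95 with a 95% counting interval from 1.30 to 55.3, and was not tested.

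Tbx3 was at 298 and 266 CPM in RING1B I53S cells -OHT and at 227 and 211 CPM in +OHT. The log2 fold change was −0.36 ± 0.17 (edgeR adjusted p = 0.13). Tbx6 was at 0.927 and 0.384 CPM -OHT and 1.00 and 0.947 CPM +OHT, with a log2 fold change of 0.53 ± 0.72. Neither was called.

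With RING1B WT in place, a T-box gene was called only in the case of Tbx15. It had 1 and 2 reads -OHT and 11 and 13 reads +OHT, and its log2 fold change was 2.96 ± 0.73 (edgeR adjusted p = 0.0376), where 1.34% of genes rose. The call was lost in 6 of the 12 fits that left out a library (without either RING1B WT -OHT library, either RING1B WT +OHT library or either parental +OHT library; adjusted p from 0.0524 to 0.279), with only the groups of the comparison (0.0869) and with DESeq2 (0.0691). Tbx20 was at 4.38 and 4.72 CPM -OHT and at 7.15 and 10.2 CPM +OHT. Its log2 fold change was 0.92 ± 0.38 (adjusted p = 0.226). Tbx5 had 1 and 3 reads -OHT and 9 and 14 +OHT (2.52 ± 0.79; adjusted p = 0.0991), and Tbx4 had 2 and 14 against 21 and 26 (1.60 ± 0.65; adjusted p = 0.223). Tbx18 had 10 and 6 reads against 8 and 12 (0.38 ± 0.64), and Tbx2 had 2 and 2 against 1 and 11 (1.64 ± 1.10). In both, the groups overlap. Tbx3 was at 318 and 278 CPM -OHT and at 340 and 329 CPM +OHT (0.17 ± 0.17). Tbx6 had 8 and 2 reads -OHT and 7 and 6 +OHT. The median log2 fold change of the 8 tested members was 1.26.

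**Figure D4:**
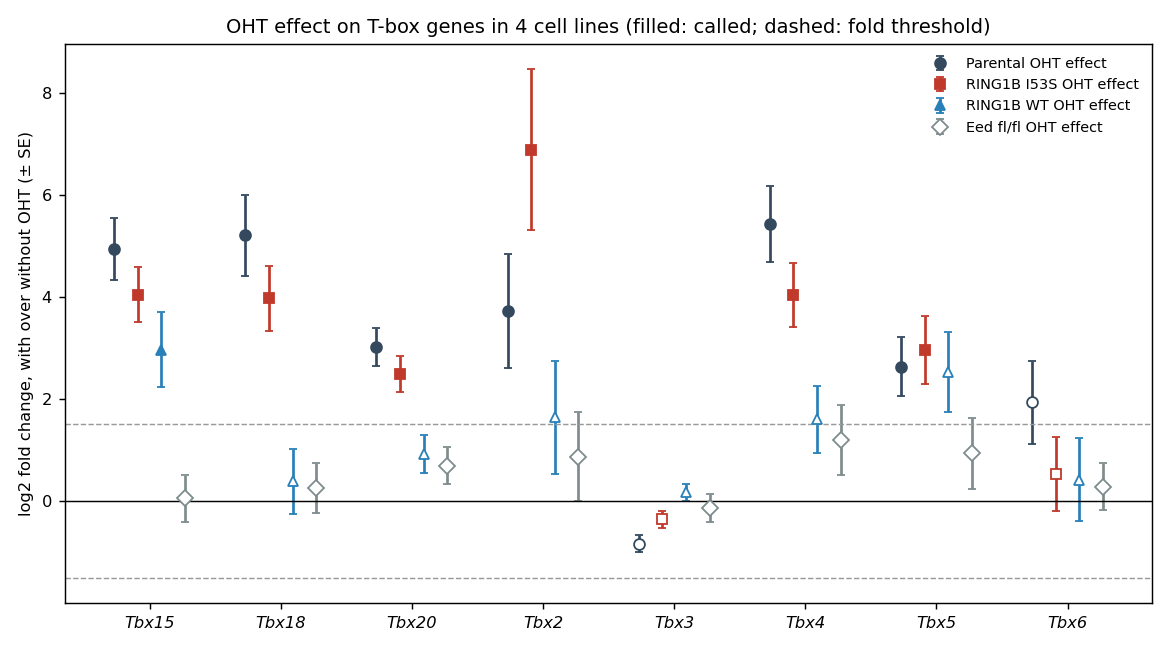
Log2 fold change with OHT over without for the 8 T-box genes tested (points with SE, from edgeR) in parental, RING1B I53S, RING1B WT and Eed fl/fl cells; filled points passed both thresholds and dashed lines mark a log2 fold change of 1.5 either way. Parental and I53S points lie above those of RING1B WT for Tbx18 and Tbx20, and Tbx3 lies below 0 in parental cells (−0.84).

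The treated groups were compared directly to ask how far the transgene made up for the loss of RING1B. These comparisons share their treated libraries with the OHT effects above. RING1B WT cells +OHT had lower levels than parental cells +OHT of Tbx4, Tbx5, Tbx15, Tbx18 and Tbx20, where 7.62% of genes were lower. The log2 differences ran from −1.75 ± 0.53 for Tbx4 (edgeR adjusted p = 0.0253) to −2.23 ± 0.46 for Tbx15 (adjusted p = 0.00245). Tbx3 was higher with RING1B WT by 0.82 ± 0.17 on the log2 scale (adjusted p = 0.00294), short of the fold threshold. These 5 calls depend on 4 libraries. Without RING1B WT +OHT replicate 1 there were 0 calls, without RING1B WT +OHT replicate 2 or parental +OHT replicate 2 there were 3, and without parental +OHT replicate 1 there were 2.

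RING1B I53S cells +OHT had higher levels than RING1B WT cells +OHT of Tbx4, Tbx15, Tbx18 and Tbx20, where 6.02% of genes were higher. The log2 differences were 1.67 ± 0.53, 2.09 ± 0.46, 2.095 ± 0.55 and 1.69 ± 0.34 in that order (edgeR adjusted p = 0.0406, 0.00574, 0.0161 and 0.00333). Tbx5 differed by 0.89 ± 0.56 (edgeR adjusted p = 0.311) and Tbx2 by 1.00 ± 0.85. The number of members called fell below 4 in 5 of the 12 fits that left out a library. Among these, dropping replicate 1 of the treated RING1B WT cells gave 0 calls. Dropping replicate 1 of the treated RING1B I53S cells gave 2. Between RING1B I53S and parental cells +OHT, no T-box gene was called in either direction (0.0661% of genes were higher and 0.0936% lower). By edgeR 0 members had an unadjusted p under 0.05, and DESeq2 called 0. The log2 differences ran from −0.92 ± 0.51 for Tbx5 to 0.23 ± 0.48 for Tbx18. With SEs of that size such changes were not detectable in these low-count genes, and the values do not show that the lines are alike. Tbx3, the member with the most reads, had a smaller SE (0.21 ± 0.17).

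The difference between OHT effects was tested as an interaction. Tbx18 and Tbx20 had a lower OHT effect with RING1B WT than in parental cells, by −4.82 ± 1.08 (edgeR adjusted p = 0.0237) and −2.09 ± 0.53 (adjusted p = 0.0418) on the log2 scale, where 1.1% of genes did. Tbx4 differed by −3.83 ± 1.08 (adjusted p = 0.07), Tbx15 by −1.97 (adjusted p = 0.503) and Tbx5 by −0.10 ± 1.89 (adjusted p = 0.995), so a difference was not shown for these. DESeq2 called 3 members. The number called ranged from 0 to 3 when a library was left out, and it was 0 without RING1B WT +OHT replicate 1 or without either parental +OHT library. It was 1 without either RING1B WT -OHT library, either parental -OHT library or RING1B WT +OHT replicate 2. Between RING1B I53S and parental cells 0 members were called, with 0 at an unadjusted p under 0.05 by edgeR and 0 by DESeq2. Over all genes 0% were called in either direction, so the count says nothing particular to the members. Between RING1B I53S and RING1B WT 0 members were called by edgeR and by DESeq2 (0.209% of genes were higher and 0.138% lower). By edgeR 5 members had an unadjusted p under 0.05, where 1712 of the 18154 genes tested did. The number of calls changed in 1 fit that left out a library, RING1B I53S -OHT replicate 1.

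Without OHT the T-box genes did not differ between lines by the call. Against parental cells -OHT, 0 members were called in RING1B I53S or RING1B WT by edgeR or DESeq2. Few genes of any kind were, 0.0881% higher and 0.0661% lower in RING1B I53S and 0.0496% and 0.011% in RING1B WT. With no adjustment of p, edgeR gave 0 members under 0.05 with RING1B I53S, against 947 of the 18154 genes tested, and 2 with RING1B WT, against 825. These were Tbx18, with 10 and 6 reads in RING1B WT against 0 and 2 in parental cells, and Tbx4, with 2 and 14 reads against 3 and 1.

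In the Eed fl/fl line, where OHT removes a core PRC2 subunit, no T-box gene was called. Of 25170 genes tested, 2 (0.00795%) rose in the whole table. edgeR gave 0 members at an unadjusted p under 0.05, and DESeq2 called 0. Tbx20 was at 6.91 and 5.98 CPM -OHT and at 11.9 and 8.84 CPM +OHT, without overlap (log2 fold change 0.69 ± 0.36; edgeR adjusted p = 0.833). Tbx4 was at 1.23 and 4.06 CPM -OHT and 2.37 and 9.82 CPM +OHT (1.19 ± 0.69), so the +OHT libraries lay further apart than the group means did. Without Eed fl/fl -OHT replicate 2, Tbx4 was called, with a log2 fold change of 2.24 and an adjusted p of 0.034. Tbx2 had 3 and 12 reads -OHT and 4 and 23 +OHT, and Tbx5 had 7 and 27 against 14 and 50. For each of Tbx1, Tbx2, Tbx4 and Tbx5, replicate 2 was the higher library in both groups. Within each replicate number, each of these genes was higher +OHT, so the overlap of the groups does not show that OHT had no effect. With replicate number as a block in edgeR, no T-box gene was called. Tbx3 was at 410 and 317 CPM -OHT and 362 and 297 CPM +OHT (−0.14 ± 0.28). Tbx15 was at 3.33 and 2.87 CPM against 2.74 and 3.68, and Tbx18 at 3.58 and 2.03 CPM against 3.61 and 3.07, with overlap in both. Tbx6 was at 2.84 and 5.38 CPM -OHT and 4.61 and 5.40 CPM +OHT. These lines were fitted apart, since Eed fl/fl cells are another ESC line and line and genotype cannot be told apart. Their vehicle libraries were also unlike. Tbx15 averaged 3.10 CPM in Eed fl/fl -OHT and 0.205 CPM in parental cells -OHT, Tbx18 2.81 and 0.124, and Tbx6 4.11 and 0.287. Tbx3 was closer, at 363 and 339 CPM. Genes with a read numbered 48118 and 28053 in these groups. Folds in Eed fl/fl and parental cells therefore start from unlike levels.

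The other T-box genes of the annotation moved like the members in part. Of 8 outside the 9 (T, Eomes, Tbr1, Tbx10, Tbx19, Tbx21, Tbx22 and Mga), 5 were tested. T, the Brachyury gene of the primitive streak, rose by 1.93 ± 0.46 on the log2 scale in parental cells (edgeR adjusted p = 0.00298), from 32 reads over the pair of libraries to 135. Tbx21, the T-bet gene of lymphocytes, rose by 2.04 ± 0.52, and Tbx22, a palate gene, by 3.85 ± 1.01 from 2 reads to 34. DESeq2 called T and Tbx21 but not Tbx22 in parental cells. By edgeR the same 3 were called in RING1B I53S cells and 0 with RING1B WT, where edgeR gave 1 at an unadjusted p under 0.05 and DESeq2 called 0. Eomes, of the streak and trophoblast, was at 7.73 and 12.6 CPM on average without and with OHT in parental cells (adjusted p = 0.107). Mga, which is part of the PCGF6 complex, was expressed throughout, at 197 CPM on average in parental cells -OHT. Its log2 fold change there was −0.56 ± 0.20. A RING1B peak in parental cells -OHT was listed at 5 of these 8, T, Eomes, Tbr1, Tbx21 and Mga, and not at Tbx22, where a SUZ12 peak of 618 bp with a score of 10.8 was the one listed for parental cells -OHT among RING1B, SUZ12 and H3K27me3.

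Genes that work beside the T-box factors were followed as lists, to be read against the 15.1% of all genes that rose and 1.83% that fell in parental cells and the 12.8% and 1.04% in RING1B I53S cells. Of 12 cardiac partners and targets, 9 were tested in parental cells, and 6 rose and 0 fell (6 and 0 by DESeq2). Among them Myh6, a cardiac myosin, rose by 2.02 ± 0.31 on the log2 scale and Isl1, a second heart field factor, by 1.90 ± 0.31. In RING1B I53S cells 5 of the 9 rose, and with RING1B WT 0 did (edgeR; 2 at an unadjusted p under 0.05, and 0 by DESeq2). The median log2 fold changes of the list were 2.19, 1.94 and 0.76. Of 14 paraxial mesoderm genes, 11 were tested. In parental cells 8 rose and 1, Ripply1, fell by edgeR, and 7 and 0 by DESeq2, without Mesp1 and Ripply1. Those that rose included Wnt3a (0 reads to 72, at least 22.2-fold), Pax1, a sclerotome factor (5.97 ± 0.93), and Lfng, a Notch modifier of the somite clock (2.81 ± 0.52). In RING1B I53S cells 6 rose, and with RING1B WT 0 did (edgeR; 4 at an unadjusted p under 0.05, and 0 by DESeq2). The list medians were 2.09, 1.85 and 0.84.

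Of 8 limb and lung bud genes, all tested, 3 rose and 1 fell in parental cells. Pitx1, which specifies the hindlimb upstream of Tbx4, rose by 7.41 ± 0.64 from 2 reads to 414. Prrx1, of limb mesenchyme, went from 0 reads to 161, at least 49.7-fold, and Sall1 fell by 2.49 on the log2 scale. DESeq2 called the same 4. By edgeR they were also called in RING1B I53S cells (3 of them by DESeq2, without Wnt2b), and Pitx1 alone with RING1B WT, at 2.79 ± 0.59. The list's median was −0.49 in parental cells, against its count of rises. The 4 not called were Lef1 (−1.37 ± 0.24), Fgf10 (−1.27 ± 0.42), Sall4 (−1.02 ± 0.17) and Bmp4 (0.05 ± 0.24). Of 12 pharyngeal genes around Tbx1, 9 were tested and 4 rose in parental cells (3 by DESeq2). Aldh1a2, which makes retinoic acid, rose by 2.93 ± 0.33 and Gbx2 by 2.63 ± 0.44. In RING1B I53S cells 5 of the 9 rose and 1, Eya1, fell, and with RING1B WT 0 were called (edgeR; 1 at an unadjusted p under 0.05, and 0 by DESeq2). The medians of the pharyngeal list were 1.22, 1.59 and −0.19. In Eed fl/fl cells edgeR called 0 genes of any of these lists, and DESeq2 called Aldh1a2 alone, as lower.

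Markers of other cell types rose with the T-box genes after OHT. The summed level of 8 trophoblast markers was 80.8 to 95.4 CPM in parental cells -OHT and 409 to 431 CPM in +OHT, and all 7 tested rose. Gata3 rose by 6.70 ± 0.36, Hand1 by 6.33 ± 0.46 and Krt18 by 2.33 ± 0.22 on the log2 scale. The 6 endoderm markers went from 1.24 to 2.36 CPM in sum, with 2 genes at 0 in both libraries, to 27.3 to 29.0 CPM, and 5 of the 6 rose. Gata6 had 0 reads -OHT and 116 +OHT (at least 35.8-fold) and Sox7 0 and 120 (at least 37.1-fold), and Dab2 rose by 3.92 ± 0.54. The 6 neural markers, 2 of them at 0 reads -OHT, went from 7.54 to 9.13 CPM to 41.0 to 44.1 CPM, and 2 of 3 tested rose (Pax6 and Nes, whereas Olig2 had an adjusted p of 0.538). The 6 fibroblast markers, 2 of them at 0 reads -OHT, went from 23.5 to 24.0 CPM to 66.2 to 68.8 CPM, and Col1a1 and Col1a2 rose while Thy1 was under the fold threshold. The 10 pluripotency genes fell in sum to 1811 to 1966 CPM, with 0 called higher and Sox2, Zfp42 and Prdm14 called lower. Esrrb was at −1.41 ± 0.17, under the fold threshold. In RING1B I53S cells the sums +OHT were 298 to 365 CPM for trophoblast, 22.6 to 24.7 for endoderm and 2109 to 2261 for pluripotency genes. With RING1B WT the trophoblast sum went from 66.9 to 80.2 CPM -OHT to 130 to 168 CPM +OHT, and Gata3 (2.13 ± 0.34) and Hand1 (2.06 ± 0.43) rose. The endoderm sum there went from 1.82 to 2.85 CPM to 5.84 to 6.35 CPM with 0 genes called (edgeR; 2 at an unadjusted p under 0.05, and 0 by DESeq2), and the pluripotency sum was 4275 to 5440 CPM -OHT and 3796 to 3804 CPM +OHT. The part of such cells in the T-box results was not tested.

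The genes most like each member over the 12 libraries of the RING1B lines were named as a description, by Pearson's r of log2 CPM. The 6 groups are shared by all such values, so any gene that rises with OHT scores high. For Tbx20 these were Runx3 (r = 0.990) and Sim1 (0.988), for Tbx15 Gm44210 (0.994) and Gfra3 (0.993), and for Tbx18 Slc6a17 (0.979) and Fxyd3 (0.978). For Tbx4 they were Inpp5a (0.975) and Erich5 (0.972), for Tbx5 Tuba3b (0.985) and Pkd2l1 (0.977), and for Tbx2 Hoxb4 (0.968) and Egr2 (0.961). For Tbx6 they were Kifc3 (0.944) and Adra2a (0.934). For Tbx3 the first was Plxdc1 (0.956).

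Set side by side, the 6 T-box genes called higher in both parental and RING1B I53S cells were Tbx2, Tbx4, Tbx5, Tbx15, Tbx18 and Tbx20. Each held RING1B, SUZ12 and H3K27me3 peaks in parental cells -OHT. Tbx1 held them too, over most of its length, and went from 0 to 14 reads in parental cells, too few for the test. Tbx6 held no peak and was not called. Its log2 fold change was 1.93 ± 0.82 in parental cells (edgeR adjusted p = 0.0735) and 0.53 ± 0.72 in RING1B I53S cells. In both lines its +OHT libraries lay above its vehicle libraries. Tbx3 was not called either, and its lower level after OHT in parental cells did not reach the fold threshold. In parental cells -OHT, Tbx3 held a low-scoring RING1B peak and no H3K27me3 peak. Its highest H2AK119ub1 peak there had a score of 19.4, above the median of 14.4 in that list. Outside the 9 genes, Tbx22 held no RING1B peak in parental cells -OHT. It was called higher by edgeR in parental and RING1B I53S cells, though not by DESeq2 in parental cells. With 9 genes this is a description and no association was tested.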

How the data were processed

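RNA-seq counts were deposited by the authors as whole reads per gene name. Per the labels and the study's methods, poly-A SMART-seq2 reads were aligned with STAR and counted by featureCounts without strand against GENCODE M21. The peak lists give a −log10 p score per peak, which the authors obtained with MACS2 for each ChIP library on its own against an E14 input on mm10. Nothing was rescaled here, and the H2AK119ub1 and H3K27me3 lists carry no spike-in scaling.

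Counts were tested with edgeR 4.0.16 (R 4.3.3; TMM, filterByExpr, quasi-likelihood F-test, Benjamini-Hochberg over all genes tested) in 1 fit of the 12 libraries of the RING1B lines (18154 genes) and in another of the 4 Eed fl/fl libraries (25170 genes). SE is the log2 fold change over the root of F, an approximation that is poor for very small changes. A call needed an adjusted p below 0.05 and a log2 fold change of at least 1.5. A gene held a peak if 1 bp or more overlapped the GENCODE M21 gene extended by 2.5 kb. Shares of annotated genes use the same rule. A floor of 3 reads in a library came to 0.232 to 0.374 CPM, the depth limit. RPKM used the union of exons.

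The statistics were tested on simulated counts. The alternatives were DESeq2 1.42.0, RLE normalisation, no filter on low counts, no fold threshold, a replicate block, each library left out, fits on the compared groups alone, and stricter peak rules. The named genes are the 9 members, the other T-box genes, the targeted genes, exon neighbours, the 2 genes most like each member, and from each list the 3 genes with the lowest adjusted p in parental cells. A few genes that this rule would name are not reported here. Any other gene named was chosen after its values were seen. The members and lists were chosen with earlier results of these data known. No pair of replicates was a single library deposited again, since their chi-square per gene was 5.88 to 22.9. One RYBP library was taken as parental at 72 h from its title, and OHT titles with no hours were taken as 72 h.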

Additional observations from a re-analysis of the deposited data

Results flagged for a closer look

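The OHT effect on 3 T-box genes differed between RING1B WT and parental cells by the test of the difference itself (edgeR interaction, 2 libraries per group). For Tbx18 the difference was −4.82 on the log2 scale (adjusted p = 0.0237), with parental libraries at 0 and 2 reads -OHT and 49 and 42 +OHT against 10 and 6 and 8 and 12 with RING1B WT. For Tbx20 it was −2.09 (adjusted p = 0.0418). For Tbx3 it was 1.00 (adjusted p = 0.036), under the fold threshold, with a fall in parental cells and no call with RING1B WT. The calls on Tbx18 and Tbx20 depend on single libraries, as given with that comparison.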

How the results depend on the processing

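Of 207 counts of called members under another setting, 182 stayed within 1.5 times the value reported and 25 did not, and of 643 log2 fold changes 604 kept direction and call. DESeq2 and a fit on the groups of the comparison each gave 0 for RING1B WT (all by the loss of Tbx15), and 1 member was called for the difference between RING1B I53S and RING1B WT with no filter on low counts. With a library left out, the counts ranged from 5 to 6 in parental cells, stayed at 6 in RING1B I53S, and ranged from 0 to 1 in RING1B WT, 0 to 5 for RING1B WT against parental +OHT and 0 to 4 for RING1B I53S against RING1B WT. They ranged from 0 to 3 and from 0 to 1 for the differences of RING1B WT from parental and of RING1B I53S from RING1B WT, and from 0 to 1 in Eed fl/fl cells. The cause of these moves was not tested beyond the smaller number of samples.

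The values that changed sign were small or rested on few reads. With a library left out in RING1B WT, Tbx6 ranged from −0.24 (without RING1B WT -OHT replicate 2) to 1.67, and Tbx2 from −1.03 to 2.59 and Tbx18 from −0.11 to 0.77 (lowest without RING1B WT +OHT replicate 2). In Eed fl/fl cells Tbx15 was at −0.093 with DESeq2 and −0.049 with RLE normalisation. With a library left out there, Tbx15 ranged from −0.18 to 0.20, Tbx2 from −0.84 to 2.08, Tbx3 from −0.36 to 0.058, Tbx4 from −0.17 to 2.24, Tbx5 from −0.23 to 2.12, Tbx6 from −0.10 to 0.77 and Tbx18 from −0.15 to 0.71. The values of Tbx2, Tbx4, Tbx5 and Tbx15 were lowest without Eed fl/fl +OHT replicate 2. The cause was not tested.

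The replicate numbers were not taken to pair the samples, and the titles do not say that they do. Deviations of same-numbered libraries had r from −0.0033 to 0.301, with 9 of 15 pairs of groups over 0.1 (Eed fl/fl, 1 pair, r = 0.459). So same-numbered libraries deviated together in part, most in Eed fl/fl cells, and why was not tested. A replicate block left every count of called members as reported (6 in parental, 6 in RING1B I53S, 1 in RING1B WT and 0 in Eed fl/fl). In Eed fl/fl cells it gave Tbx4 a log2 fold change of 1.15 with an adjusted p of 0.0466, under the fold threshold.

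For peaks, a score of at least 20 lowered the number of members from 4 to 0 for RING1B in RING1B I53S and from 8 to 3 and 7 to 4 for H2AK119ub1 in parental cells -OHT and +OHT. For H3K27me3 it gave 4 in parental cells +OHT, 3 in RING1B I53S, and 3, 0, 3 and 1 in the MTF2 KO clones of parental -OHT, parental +OHT, RING1B WT and RING1B I53S. For SUZ12 it gave 4 in RING1B I53S and 1 and 0 in the parental +OHT and RING1B I53S MTF2 KO clones. In the RING1B I53S MTF2 KO clone a window at the start site gave 1 member for H3K27me3 and 0 for SUZ12, and an overlap of 500 bp gave 1 for H3K27me3. A stricter score leaves fewer peaks by construction.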
